A study of Homo sapiens with 26 samples.

Results

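The 38 genes described here are 31 interferon-induced antiviral genes and 7 genes of antigen presentation by class I molecules. They were taken by symbol from the 19806 gene rows of a deposited table, and 30 of them (23 antiviral and 7 class I) had a mean of at least 1 FPKM (mapped fragments scaled to transcript length and library size), the level at which a gene was tested. IFIT3 lay just inside that limit with a mean of 1.04 FPKM and ISG15 just outside it with 0.94 FPKM. The other members under it were IFI44, OASL, MX1, IFI27, OAS2 and RSAD2, with means of 0.79, 0.72, 0.48, 0.20, 0.16 and 0.02 FPKM, and IRF7, which was listed at 0 in every library.

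RNA came from U2OS cells, an established human osteosarcoma line, carrying a circadian reporter (Arntl::dLUC). The 2 groups were cells in acidic medium (pH 6.3) and cells in neutral medium (pH 7.4), with 13 libraries each, 1 per pH every 4 h from 4 to 52 h. Both media contained dexamethasone at 0.1 µM, a glucocorticoid drug used to synchronise cellular clocks, with reduced serum and PIPES and HEPES as buffers, and the dishes were sealed in air without added carbon dioxide. The samples of 4 to 24 h (6 per pH) and of 28 to 52 h (7 per pH) came from 2 sets of plates treated on successive days, so later time and plate set cannot be told apart. Each pH and hour gave 1 library, so every SD and p-value below measures the spread over time points.

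Interferons are signalling proteins that cells release on infection. Type I interferons bind the receptor made of IFNAR1 and IFNAR2, its kinases JAK1 and TYK2 phosphorylate STAT proteins, and a complex that holds STAT2 and IRF9 enters the nucleus and binds a short DNA element upstream of antiviral genes. The products of these genes bind viral RNA, degrade it or halt its translation. Class I molecules show peptides from inside the cell to cytotoxic T cells. TAP1 and TAP2 form the pump that carries the peptides into the endoplasmic reticulum, tapasin (TAPBP) helps to load them, and each class I molecule pairs an HLA heavy chain with B2M, its light chain. Interferon induces many of these presentation genes too.

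The element is shown first because it is a sequence that genes of both groups share. Its core was searched as GAAA, any 2 bases and GAAA again, on both strands and with overlapping matches allowed, in the 250 bases upstream of each gene start in RefSeq (GRCh38.p14). Promoters were at hand for 32 of the 38 members, and 21 of these 32 (65.6%) held the letters, against 1014 of 27305 genes with a promoter in the table (3.71%). The share was 65.4% for 26 antiviral members and 66.7% for 6 class I members. Examples of both groups follow on the strand of the gene, with the matched letters, or their reverse complement, in capitals.
IFIT1: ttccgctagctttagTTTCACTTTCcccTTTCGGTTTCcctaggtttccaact
IFIT5: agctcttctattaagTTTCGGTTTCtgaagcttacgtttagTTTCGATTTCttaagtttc
SAMD9: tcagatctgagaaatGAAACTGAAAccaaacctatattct
PARP9: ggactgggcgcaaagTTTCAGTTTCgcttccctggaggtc
TAP1: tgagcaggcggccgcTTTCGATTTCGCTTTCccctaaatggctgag
TAPBP: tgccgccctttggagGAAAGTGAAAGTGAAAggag
B2M: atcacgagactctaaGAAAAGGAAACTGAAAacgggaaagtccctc
The stretch of IFIT1 lies at chr10:89392492-89392544 (plus strand) and that of IFIT5 at chr10:89414508-89414567 (plus strand). SAMD9 is shown at chr7:93118091-93118130 (minus strand) and PARP9 at chr3:122564317-122564356 (minus strand). TAP1 is shown at chr6:32853808-32853853 (minus strand), TAPBP at chr6:33314079-33314113 (minus strand) and B2M at chr15:44711358-44711403 (plus strand). The matches in TAP1, TAPBP and B2M overlap each other. A match describes the letters only. Among the members with a promoter, the letters stood in 8 of 12 that were lower in acid, in 1 of 3 that were higher (TAP1) and in 7 of 12 that passed in neither direction. They also stood in 5 of 5 members under the level filter.

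Over the whole course the antiviral genes were mostly lower at pH 6.3, while 4 of the 7 class I genes were higher. Of 23 antiviral genes tested, 13 were lower, 1 (USP18) was higher and 9 did not pass, with a median log2 difference (pH 6.3 minus pH 7.4, on the log2(FPKM + 1) scale) of −0.38. Of the 13, IFIT2, IFIT3, SAMD9, SAMD9L and IFI44L averaged under 1 FPKM in acid and reached the level filter only through neutral medium, so their place in the count is not independent of their direction. Of the 7 class I genes 4 were higher (TAP1, HLA-B, HLA-E and HLA-C), 0 were lower and 3 did not pass, with a median of 0.39. Over all 11849 genes tested, 37.3% were lower and 22.4% higher, with a median of −0.12. These calls are from limma's moderated test over all genes tested, with the time point as a block and Benjamini-Hochberg adjustment at 0.05, and at an unadjusted p below 0.05 the class I count lower was also 0. Without the 6 hours whose libraries stood apart in depth or GC content (8, 12, 20, 28, 44 and 48 h), 10 antiviral genes were lower and 1 higher, 3 class I genes were higher, and the medians were −0.42 and 0.13. Of the 11849 genes tested 3967 were lower and 2322 higher in that setting, with a median of −0.13. Quantile normalization shifted the median of all genes by 0.107, and 48.1% of all calls were then higher, against 37.5% with the deposited scaling. The counts lower and higher were then 10 and 1 for antiviral genes and 1 and 5 for class I genes.

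The libraries limit these values in 2 ways. Total counts are not in the table, and the spacing of low FPKM values gave an estimated 20100000 to 36100000 fragments for 24 libraries, 11300000 fragments for pH 6.3 at 8 h and 9820000 fragments for pH 7.4 at 12 h. The deviations of genes from their means followed the GC content of their transcripts most closely in pH 6.3 at 20 h (r = 0.633 across genes, which are not independent replicates) and in pH 7.4 at 28, 44 and 48 h (r = 0.751, −0.67 and −0.718). The longest annotated transcripts of the class I genes had a median GC content of 57.5%, those of the antiviral genes 44.2% and those of all genes tested 47.6%. The cells expressed mesenchymal and bone lineage genes, with mean levels of 626 FPKM for VIM, 999.7 for SPARC, 109 for COL1A1 and 24.4 for RUNX2. ALPL was low (2.24 FPKM), COL1A2 was under the level filter (0.858 FPKM) and TWIST1 was near 0. Of the 6 tested genes of that list COL1A1 and ALPL were lower in acid, by 0.78 and 1.03 on the log2 scale, and 4 did not pass. Of the 5 epithelial markers EPCAM and CLDN4 passed the level filter, and both were lower in acid, by 0.63 and 1.37 on the log2 scale. CLDN4 averaged 0.805 FPKM in acid and 3.62 FPKM in neutral medium, so it reached the filter only through neutral medium. The 5 epithelial genes summed to 4.28 to 7.94 FPKM at pH 6.3 and 5.90 to 12.6 FPKM at pH 7.4. The 9 leukocyte markers summed to 6.96 to 18.6 FPKM at pH 6.3 and 14.1 to 41.0 FPKM at pH 7.4, nearly all of it LCP1, with CD3E at a mean of 0.0051 FPKM. The part of these genes in the results below was not tested, and in bulk RNA fewer cells of a type and less RNA per cell cannot be told apart.

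Of the 10 virus-blocking effectors tested, 8 were lower in acid and 0 higher, by the adjusted or the unadjusted p of limma, with a median log2 difference of −0.84. Over all genes tested 37.3% were lower and 22.4% higher by the adjusted p. Among the 8, IFIT2, IFIT3, SAMD9 and SAMD9L reached the level filter only through neutral medium, so the count is not independent of direction. The IFIT genes, whose products bind viral RNA, form a cluster on chromosome 10. IFIT5 (ENSG00000152778 and 89414586 to 89421001 on the plus strand in GRCh38) ranged from 2.97 to 5.35 FPKM, with a median of 4.33, at pH 6.3 and from 6.88 to 12.7 FPKM, with a median of 9.29, at pH 7.4. Every acidic library lay below every neutral one, and IFIT5 was the only tested member whose groups did not overlap, which held for 2.37% of all genes tested in that direction and for 1.28% in the other. It was also lower at 13 of 13 hours, as 8.19% of all genes tested were. Its log2 difference was −1.0 (SE 0.11, adjusted p = 1.61e-06). IFIT1 ranged from 0.652 to 4.50 FPKM, with a median of 3.30, at pH 6.3 and from 1.69 to 14.6 FPKM, with a median of 7.52, at pH 7.4. The groups overlapped, and IFIT1 was lower in acid at 11 of 13 hours by 1.16 on the log2 scale (SE 0.26, adjusted p = 0.00125). At 24 and 28 h its levels were nearly level between media, at 4.35 and 3.71 FPKM in acid against 4.71 and 3.69 FPKM in neutral medium. IFIT2 and IFIT3 were low in both media, at medians of 0.587 and 0.547 FPKM in acid against 1.52 and 1.67 FPKM in neutral medium. Both were lower in acid at 12 of 13 hours, and they fell by 0.73 and 0.83 on the log2 scale, which understates changes at such levels.

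SAMD9 and SAMD9L, neighbouring genes on chromosome 7 whose products restrict poxviruses, were both lower in acid at 12 of 13 hours. SAMD9 (ENSG00000205413 and 93099513 to 93118023 on the minus strand) ranged from 0.136 to 1.15 FPKM, with a median of 0.664, at pH 6.3 and from 0.805 to 4.86 FPKM, with a median of 3.75, at pH 7.4. The ranges met only through the neutral 4 h library, and from 8 h on every acidic library was below its neutral partner. The log2 difference was −1.49 (SE 0.16, adjusted p = 1.75e-06), the lowest of the 30 tested members. SAMD9L fell by 1.10 (SE 0.14, adjusted p = 9.74e-06), with medians of 0.430 FPKM in acid and 2.73 FPKM in neutral medium. OAS1 and OAS3, enzymes that sense double-stranded RNA and make the oligoadenylates that activate RNase L, fell by 0.84 and 0.38. OAS1 was lower at 11 of 13 hours, with means of 1.05 ± 0.714 FPKM in acid and 2.70 ± 1.26 FPKM in neutral medium (SD, n = 13). The call of OAS3 was lost after quantile normalization (adjusted p = 0.242), without the 20, 28, 44 and 48 h pairs (adjusted p = 0.0896) and without the 16, 20, 24 or 28 h pair alone (adjusted p from 0.0537 to 0.0694). The exonuclease gene ISG20 and the helicase gene DDX60 had differences of −0.16 and −0.25 that did not pass (adjusted p = 0.506 and 0.195), the first of which turned to 0.07 after quantile normalization.

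**Figure D1:**
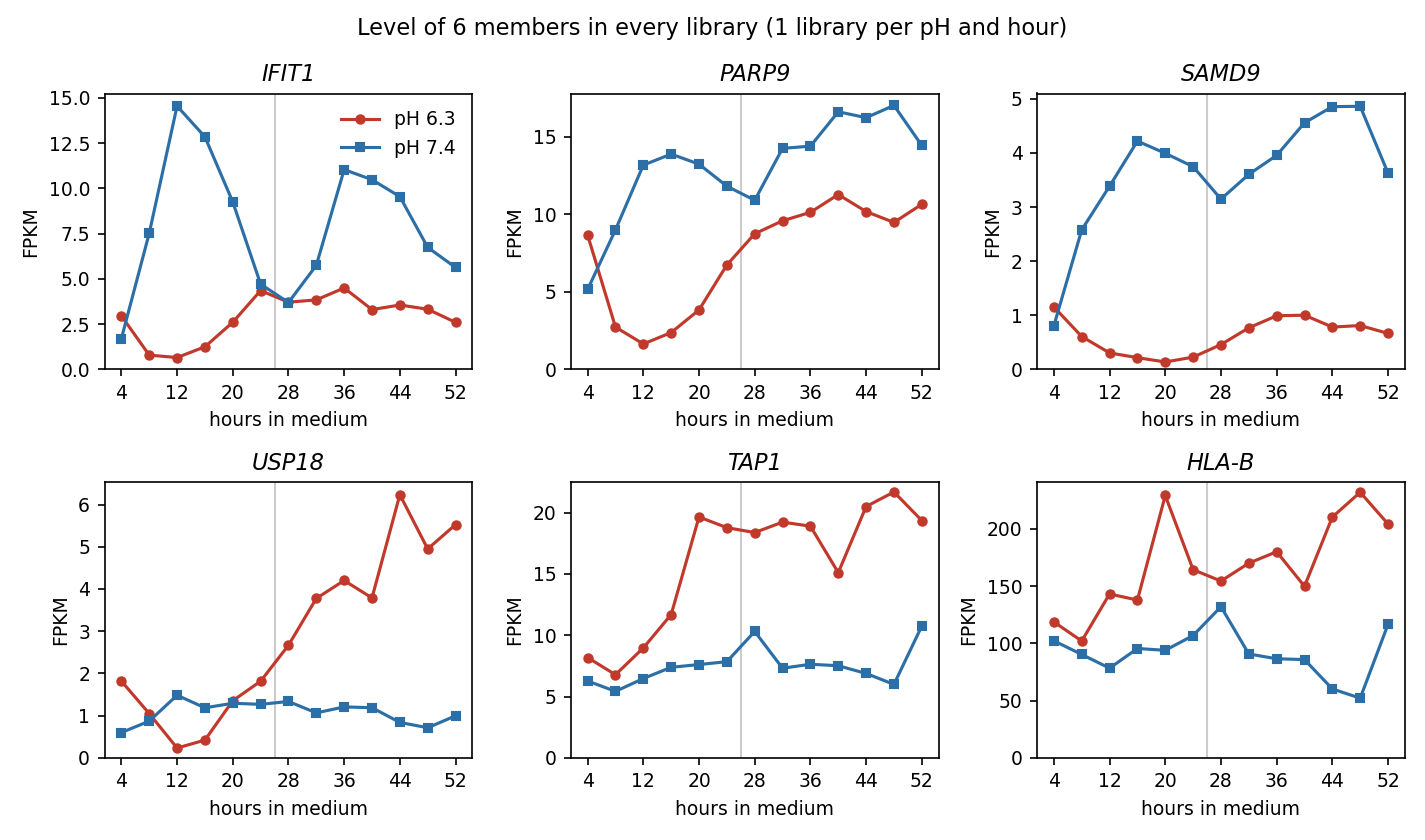
Level in FPKM (vertical axis, linear, starting at 0) of 6 members against hours in medium, with 1 point per library, acidic libraries as red circles and neutral libraries as blue squares, and a grey line between the 2 sets of plates. IFIT1, PARP9 and SAMD9 are higher in acid at 4 h and lie below the neutral curve at most later hours. USP18 is below it at 12 and 16 h and above it at the other hours, and TAP1 and HLA-B are above the neutral curve at all 13 hours.

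ISG15 is a ubiquitin-like protein that is attached to other proteins. Of the tested genes grouped with it here, HERC6 passed as lower, USP18 as higher and UBE2L6 in neither direction. The attaching enzyme gene UBE2L6 had a difference of −0.34 that did not pass (adjusted p = 0.081), though it passed as lower without the 4, 44 or 48 h pair (adjusted p from 0.0216 to 0.0453), without the 20, 28, 44 and 48 h pairs (adjusted p = 0.0413) and with GC content corrected for (adjusted p = 0.0156). HERC6, which encodes a ubiquitin ligase of the HERC family, fell by 0.67 (SE 0.13, adjusted p = 4.9e-04), with 1.14 ± 0.395 FPKM in acid and 2.39 ± 0.588 FPKM in neutral medium (SD, n = 13). Its call was lost without the 6 pairs (−0.48, adjusted p = 0.0518). USP18, whose product removes ISG15 and also blocks signalling at IFNAR2, was the 1 antiviral gene that rose. It ranged from 0.232 to 6.23 FPKM, with a median of 2.67, at pH 6.3 and from 0.599 to 1.48 FPKM, with a median of 1.19, at pH 7.4. In 9 acidic libraries it lay above the highest neutral one and in 2, at 12 and 16 h, below the lowest. Its mean difference over the course was 0.72 (SE 0.23, adjusted p = 0.0121), a call lost without the 20, 28, 44 and 48 h pairs (0.55, adjusted p = 0.0969). ISG15 itself was under the level filter, at medians of 0.753 FPKM in acid and 0.427 FPKM in neutral medium.

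PARP9 and DTX3L, whose products pair an ADP-ribosyltransferase with a ubiquitin ligase, lie head to head on chromosome 3, and PARP14, another ADP-ribosyltransferase, lies near them. PARP9 ranged from 1.64 to 11.3 FPKM, with a median of 8.75, at pH 6.3 and from 5.16 to 17.0 FPKM, with a median of 13.9, at pH 7.4. The groups overlapped, but PARP9 was lower in acid at 12 of 13 hours, by 0.87 on the log2 scale (SE 0.21, adjusted p = 0.00184). PARP14 was lower by 0.38 (SE 0.14, adjusted p = 0.0317), and DTX3L had a difference of −0.09 (adjusted p = 0.603). DTX3L had 4 hours lower and 9 hours higher in acid, and the sign of its mean turned under 4 of the 23 alternatives, in none of which it passed. The call of PARP9 was lost without the 6 pairs (adjusted p = 0.0731), and that of PARP14 in 10 of 23 alternatives (adjusted p from 0.0517 to 0.33). Reads of PARP9 and DTX3L could be mixed at their overlapping starts if strand was not used in counting, which is not given in the sources used here.

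Among the sensors of viral RNA, DDX58 (RIG-I) fell by 0.40 (SE 0.12, adjusted p = 0.00764). It ranged from 4.50 to 10.9 FPKM, with a median of 8.65, at pH 6.3 and from 3.66 to 21.4 FPKM, with a median of 10.4, at pH 7.4. The acidic range lay inside the neutral one, and the call was lost without the time point block (adjusted p = 0.0991), after quantile normalization (adjusted p = 0.128) and without the 20, 28, 44 and 48 h pairs (adjusted p = 0.0965). IFIH1 (MDA5), the other cytosolic RNA sensor, had a difference of −0.17 (adjusted p = 0.411) that turned to 0.02 after quantile normalization. STAT2 and IRF9, which encode subunits of the activating complex, did not pass, with differences of −0.03 and 0.03 (adjusted p = 0.872 and 0.737) whose signs turned under 7 and 2 of the alternatives. They were well expressed, at medians of 56.3 and 32.2 FPKM in acid against 46.6 and 32.7 FPKM in neutral medium. Among the interferon-inducible IFI genes, IFI44L fell by 0.93 (SE 0.14, adjusted p = 5.1e-05) and was lower at 12 of 13 hours. IFI6, a membrane protein gene, and IFI35 did not pass, with differences of −0.20 and −0.24 (adjusted p = 0.228 and 0.399), though IFI6 passed as lower without the 8 and 12 h pairs (−0.36, adjusted p = 0.0244).

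In the class I group TAP1 and HLA-B were higher in acid at 13 of 13 hours, as 4.43% of all genes tested were. TAP1 (ENSG00000168394 on chromosome 6 and 32845209 to 32853978 on the minus strand) ranged from 6.78 to 21.7 FPKM, with a median of 18.8, at pH 6.3 and from 5.42 to 10.8 FPKM, with a median of 7.39, at pH 7.4. In 10 of 13 acidic libraries it was above the highest neutral one, and its difference was 0.94 (SE 0.13, adjusted p = 1.37e-05). HLA-B, a heavy chain gene, ranged from 102 to 232 FPKM, with a median of 164, at pH 6.3 and from 52.1 to 132 FPKM, with a median of 90.7, at pH 7.4. The groups overlapped in 2 acidic libraries, and the difference was 0.87 (SE 0.15, adjusted p = 1.03e-04). HLA-E, whose product is read by natural killer cells, rose by 0.80 (SE 0.16, adjusted p = 5.85e-04) and was higher at 12 of 13 hours, with means of 9.02 ± 3.32 FPKM in acid and 4.84 ± 1.97 FPKM in neutral medium (SD, n = 13). HLA-C rose by 0.39 (SE 0.16, adjusted p = 0.0424), a call lost without the 8 and 12 h pairs (adjusted p = 0.101), without the 20, 28, 44 and 48 h pairs (adjusted p = 0.0956) and in 8 of 13 settings that leave out 1 hour (adjusted p from 0.0502 to 0.0946). Without all 6 of these pairs its difference was 0.13 (adjusted p = 0.301), and with no filter on low values the call was also lost (adjusted p = 0.0645), so it was lost in 12 of 23 alternatives.

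TAP2, TAPBP and B2M did not pass over the whole course. TAP2, the partner of TAP1 in the pump, ranged from 5.65 to 25.2 FPKM, with a median of 11.4, at pH 6.3 and from 3.83 to 26.9 FPKM, with a median of 9.17, at pH 7.4. The ranges lay over each other, and its difference of 0.17 (adjusted p = 0.527) turned to −0.02 without the 20, 28, 44 and 48 h pairs. TAPBP had a difference of 0.27 (adjusted p = 0.217), which passed without the 28 h pair (0.41, adjusted p = 0.0328) and after quantile normalization (0.46, adjusted p = 0.0195). B2M, the most abundant member, had medians of 593 FPKM in acid and 599 FPKM in neutral medium and a difference of −0.15 (adjusted p = 0.127), which passed as lower after quantile normalization (−0.31, adjusted p = 0.00661). The HLA genes are near-identical in sequence, differ between people and, in the annotation used, the ranges of HLA-B and HLA-C overlap on 1 strand, so their shares of the reads are uncertain.

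The hourly differences gave the antiviral genes a shape over time. At 4 h, 21 of the 23 were higher in acid, with a median difference of 0.39, against 0.04 over all genes tested. At 8 h the median was −0.38, at 12 h −1.01 and at 16 h −1.30, when 21 of the 23 were lower, against −0.13, −0.23 and −0.26 over all genes tested. From 20 to 52 h it lay between −0.69 and −0.37. Of the 23 genes 8 had their lowest difference at 16 h and 5 at 12 h, and 11 had their highest at 4 h. The libraries of low estimated depth are those of 8 h (pH 6.3) and 12 h (pH 7.4). At 16 h the estimates were 24600000 fragments in acid and 25200000 fragments in neutral medium, with GC correlations of −0.112 and 0.228. Each hour is 1 library per pH, so these differences carry no test.

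The levels in both media differed between these hours. IFIT1 was at 2.96 FPKM in acid and 1.69 FPKM in neutral medium at 4 h, and at 0.652 FPKM in acid and 14.6 FPKM in neutral medium at 12 h. The acidic level was at its lowest and the neutral level at its highest at that hour. PARP9 was at 8.67 FPKM in acid and 5.16 FPKM in neutral medium at 4 h, and at 2.37 FPKM in acid and 13.9 FPKM in neutral medium at 16 h. STAT2 was at 11.1 FPKM in acid and 31.3 FPKM in neutral medium at 8 h, and from 20 h on it was higher in acid at every hour. OAS1 and OAS3 turned later than these genes and were higher in acid at 4 and 8 h, OAS1 at 2.87 and 2.03 FPKM in acid against 1.95 and 0.738 FPKM in neutral medium.

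**Figure D2:**
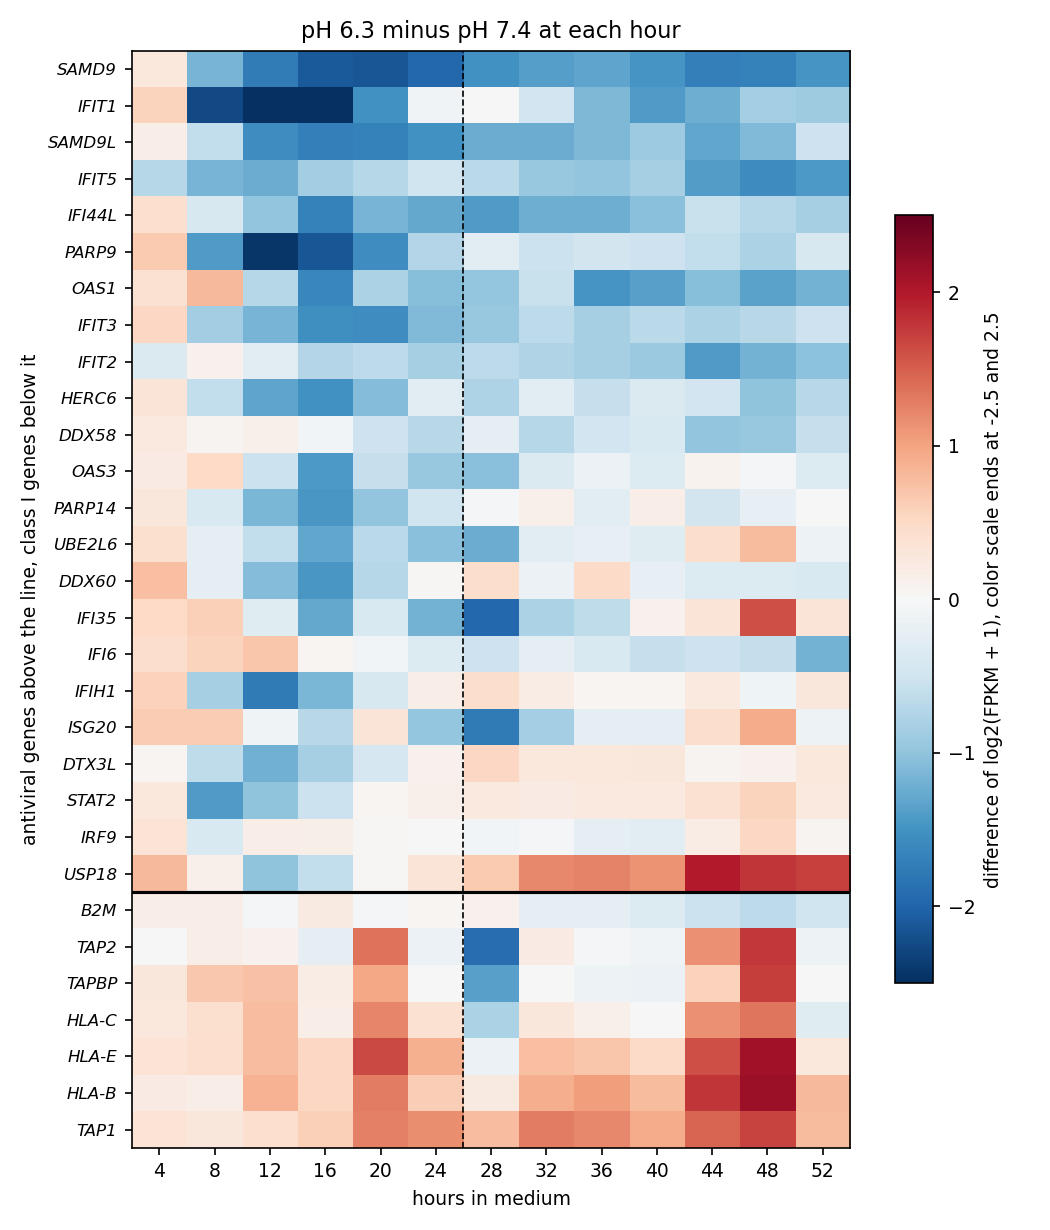
Difference of log2(FPKM + 1), pH 6.3 minus pH 7.4, at each hour (columns) for the 30 members with a mean of at least 1 FPKM (rows), with red higher and blue lower in acid, the antiviral genes above the black line and the class I genes below it, each sorted by mean difference, and a dashed line between the sets of plates. Most antiviral rows are pale red at 4 h and darkest blue at 12 to 16 h, and the class I rows other than B2M are mostly darkest red at 20, 44 and 48 h.

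The class I genes had another shape. Their median difference was highest at 20 h (1.26), 44 h (1.15) and 48 h (1.73), and lowest at 28 h (−0.14). Of the 7 genes 6 had their highest difference at 48 h and 4 their lowest at 28 h. These hours hold the libraries that followed GC content most closely. Their deviations went toward GC-rich genes in pH 6.3 at 20 h and in pH 7.4 at 28 h. In pH 7.4 at 44 and 48 h they went away from such genes. The GC correlations of their partners were 0.359 (pH 7.4, 20 h) and −0.466, 0.0763 and 0.303 (pH 6.3, 28, 44 and 48 h). At 24 h the GC correlations were −0.113 in acid and 0.451 in neutral medium, with a class I median difference of 0.38. TAP2, whose longest annotated transcript has a GC content of 49.1%, was at 25.2 FPKM in acid and 9.17 FPKM in neutral medium at 20 h. At 28 h it was at 6.45 FPKM in acid and 26.9 FPKM in neutral medium. B2M, whose longest annotated transcript has a GC content of 40.6%, had its lowest difference, −0.66, at 48 h. The part of GC content in these hourly differences was not tested. Without the 20, 28, 44 and 48 h pairs the class I median over the course was 0.23, and after correction for GC content in each library it was 0.26. TAP1, HLA-B and HLA-E passed as higher in both settings.

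**Figure D3:**
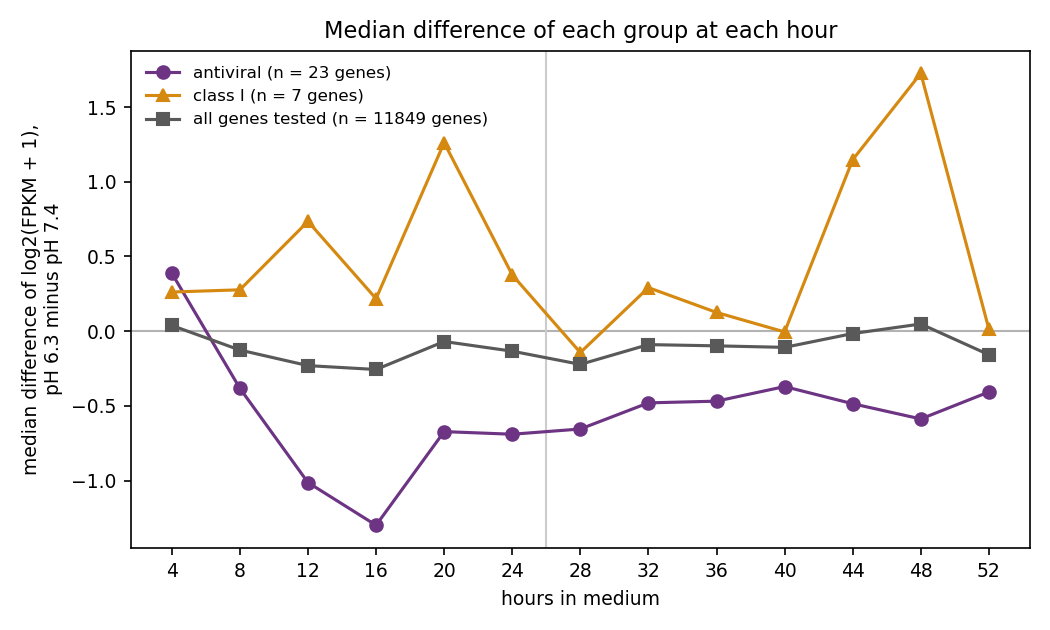
Median difference of log2(FPKM + 1), pH 6.3 minus pH 7.4, at each hour over 23 antiviral genes (circles), 7 class I genes (triangles) and all 11849 genes tested (squares), with grey lines at 0 and between the sets of plates. The antiviral median is 0.39 at 4 h and −1.30 at 16 h and stays below 0 afterwards, while the class I median peaks at 20, 44 and 48 h.

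The acid effect was next taken within each set of plates. At 4 to 24 h 11 antiviral genes were lower and 0 higher (0 also by the unadjusted p), against 28.0% lower and 11.9% higher of all genes, and 3 class I genes were higher. At 28 to 52 h 11 antiviral genes were lower and 1 higher, against 33.4% and 25.2% of all genes, and 3 class I genes were higher and 1 (B2M) lower. IFIT1, IFIT2, IFIT3, IFIT5, SAMD9, SAMD9L, HERC6 and IFI44L were lower, and TAP1, HLA-B and HLA-E higher, in both sets. Of these, IFIT2, IFIT3, SAMD9, SAMD9L and IFI44L reached the level filter only through neutral medium. PARP9, PARP14 and DTX3L passed as lower at 4 to 24 h and not at 28 to 52 h, with differences of −1.27, −0.70 and −0.49 there and of −0.52, −0.10 and 0.25 at 28 to 52 h. OAS1, DDX58 and IFI6 passed as lower at 28 to 52 h and not at 4 to 24 h, with differences of −1.13, −0.62 and −0.57 there and of −0.50, −0.14 and 0.22 at 4 to 24 h. Without the 4 h pair 17 antiviral genes were lower at 4 to 24 h, and without the 6 pairs, which leaves the 4, 16 and 24 h pairs in that set, 2 were. Over all genes tested 3963 and 761 were lower in these settings, in that order, against 3318 with all hours.

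The difference between the sets was tested as an interaction of pH and plate set, which 10.5% of all genes passed upward and 6.56% downward. USP18 and DTX3L passed upward, IFI6 and B2M downward, and the other 26 members did not pass. USP18 averaged 1.11 ± 0.679 FPKM in acid and 1.12 ± 0.323 FPKM in neutral medium at 4 to 24 h (SD, n = 6). At 28 to 52 h it averaged 4.45 ± 1.21 FPKM in acid and 1.05 ± 0.218 FPKM in neutral medium (SD, n = 7), and its acid effect was larger there by 1.44 on the log2 scale (SE 0.29, adjusted p = 0.00527 by limma). DTX3L had an effect larger by 0.74 (SE 0.21, adjusted p = 0.0244). Its level averaged 14.8 ± 0.474 FPKM in acid and 12.3 ± 1.19 FPKM in neutral medium at 28 to 52 h. The effect on IFI6 was lower by 0.79 (SE 0.21, adjusted p = 0.0183) and that on B2M by 0.43 (SE 0.12, adjusted p = 0.0217). B2M averaged 563.5 ± 46.7 FPKM in acid and 718 ± 78.0 FPKM in neutral medium at 28 to 52 h (SD, n = 7). STAT2 missed the threshold (0.72, adjusted p = 0.0534). Without the 4 h pair 7 antiviral genes passed upward, among them STAT2 (adjusted p = 0.023), PARP9 (0.00808), PARP14 (0.0169), IFIH1 (0.0267) and IFIT3 (0.0387). Over all genes tested 1454 passed upward in that setting, against 1249 with all hours. Without the 6 pairs 0 of the 30 members passed in either direction, where only 2 of all genes tested passed upward and 0 downward.

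**Figure D4:**
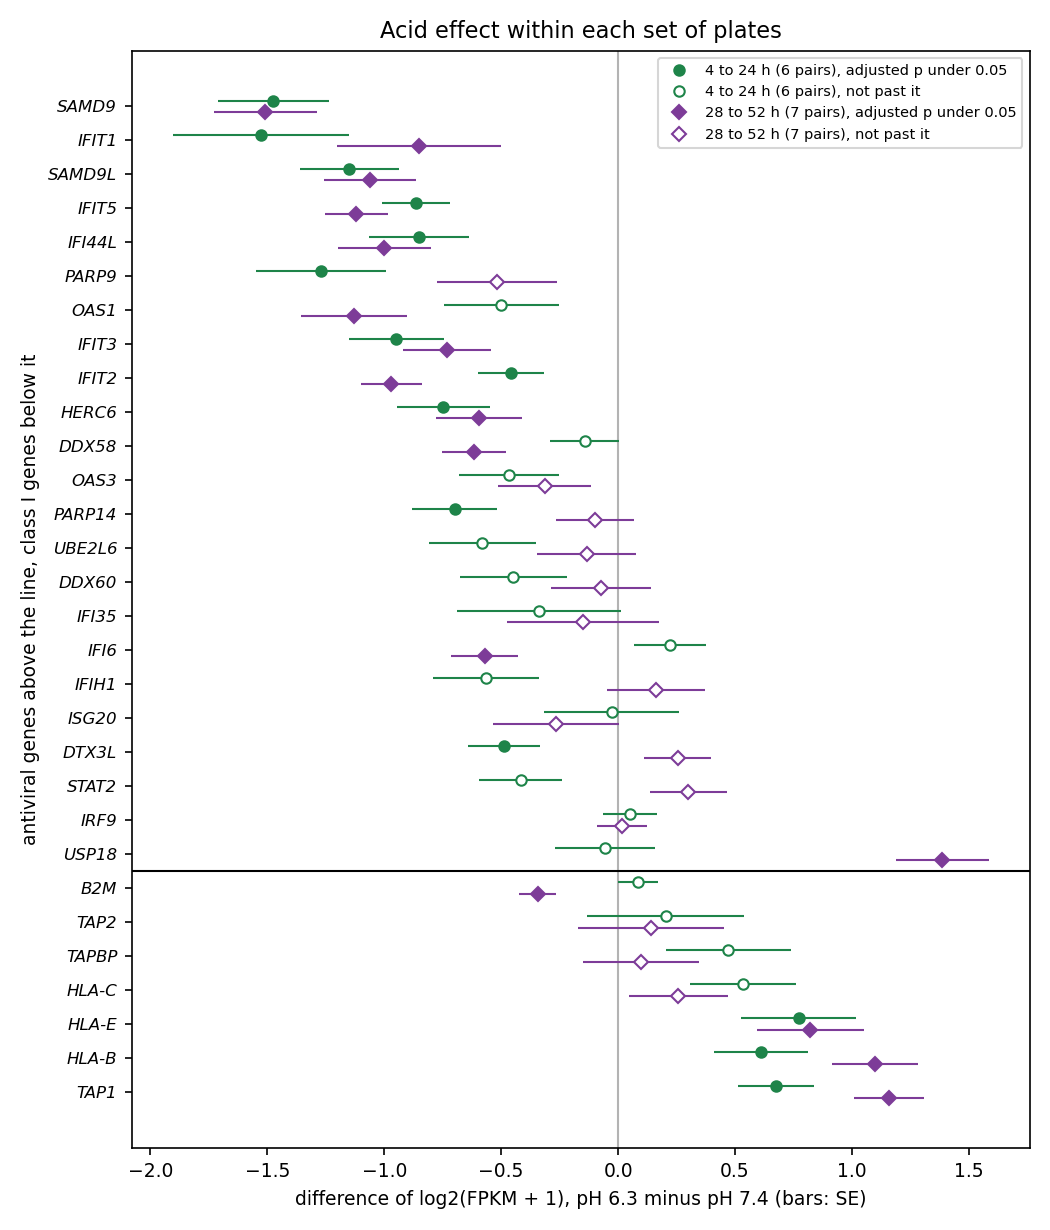
Acid effect (difference of log2(FPKM + 1), pH 6.3 minus pH 7.4, horizontal axis, bars showing the SE) on each of the 30 members within 4 to 24 h (green circles) and within 28 to 52 h (purple diamonds), filled where the adjusted p is under 0.05. USP18 and DTX3L lie further right at 28 to 52 h than at 4 to 24 h, IFI6 and B2M further left, and TAP1, HLA-B and HLA-E are right of 0 in both sets.

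The same 4 groups of libraries also gave the change between the sets within each medium. In acid 8 antiviral genes were higher at 28 to 52 h than at 4 to 24 h and 1 (IFI6) was lower, against 25.0% and 16.6% of all genes. The 8 were USP18, IFIH1, STAT2, PARP9, PARP14, DTX3L, DDX58 and UBE2L6. In neutral medium 2 antiviral genes, DDX58 and IFIT2, were higher and 0 lower (0 also by the unadjusted p), against 4.43% and 3.14% of all genes. IFIH1 averaged 6.45 ± 0.945 FPKM at 28 to 52 h and 2.21 ± 1.62 FPKM at 4 to 24 h in acid, a difference of 1.35 (SE 0.23, adjusted p = 5.39e-05). STAT2 averaged 61.4 ± 5.66 FPKM at 28 to 52 h and 29.2 ± 18.1 FPKM at 4 to 24 h in acid, a difference of 1.26 (SE 0.26, adjusted p = 4.65e-04). Of the 10 virus-blocking effectors 0 passed in acid (1 higher by the unadjusted p of limma), where SAMD9 had a difference of 0.34 (adjusted p = 0.154) and IFIT5 of 0.02 (adjusted p = 0.907). Of the class I genes TAP1 was higher late in acid, by 0.68 (adjusted p = 0.00393), and B2M late in neutral medium, by 0.31 (adjusted p = 0.00652).

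Other genes of the pathway were read from lists, and their counts stand beside the 22.4% of all genes tested that were higher and the 37.3% that were lower. None of 10 interferon genes (IFNB1, IFNE, IFNK, IFNW1, IFNA1, IFNA2, IFNL1, IFNL2, IFNL3 and IFNG) reached a mean of 1 FPKM, and their sum was at most 0.208 FPKM in an acidic library and 0.197 FPKM in a neutral one. Of 8 tested genes of receptors and kinases 4 were higher and 3 lower. IFNAR1, a subunit of the type I receptor, was lower at 13 of 13 hours, with 7.69 ± 1.72 FPKM in acid and 13.6 ± 1.23 FPKM in neutral medium (SD, n = 13), by 0.78 on the log2 scale (adjusted p = 8.68e-06). Its partner IFNAR2 fell by 0.23 and IL10RB, a subunit of the lambda interferon receptor, by 0.86. The interferon gamma receptor genes IFNGR1 and IFNGR2 rose by 0.82 and 0.36, and the kinase genes JAK1 and JAK2 by 0.27 and 0.38. TYK2 did not pass (0.17, adjusted p = 0.449), and IFNLR1 was near 0.

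Of 9 tested transcription factors and brakes 2 were higher and 3 lower. NLRC5, the transactivator of class I genes, fell by 1.09 (SE 0.20, adjusted p = 2.13e-04), with 3.34 ± 1.72 FPKM in acid and 8.06 ± 2.48 FPKM in neutral medium (SD, n = 13). The brake gene SOCS1 fell by 0.79, while SOCS3 rose by 0.77 and the repressor gene IRF2 by 0.58. SOCS1 averaged 0.683 FPKM in acid and 1.93 FPKM in neutral medium, so it reached the level filter only through neutral medium. Of 11 tested genes of nucleic acid sensing 1 was higher and 4 lower, led by the kinase gene IKBKE, which fell by 1.01. IKBKE averaged 0.631 FPKM in acid and 2.28 FPKM in neutral medium and likewise reached the filter only through neutral medium. The counts lower that hold SOCS1 and IKBKE are therefore not independent of direction. The adaptor gene TMEM173 (STING) rose by 0.94 and was higher at 13 of 13 hours. TLR3 fell by 0.49 and ZNFX1 by 0.42. Of 22 other interferon-induced genes tested 6 were higher and 11 lower, among them SP110, GBP2 and IFITM3 higher by 1.03, 0.89 and 0.79, and TRIM21, GBP1 and TRIM14 lower by 1.04, 0.95 and 0.70. Of 13 other genes of the class I route tested, immunoproteasome subunits and chaperones among them, 2 were higher, among them the chaperone gene PDIA3 by 0.16, and 2 lower, the peptide-trimming genes ERAP2 by 0.61 and ERAP1 by 0.35.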

How the data were processed

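The authors deposited 1 table of FPKM values for 26 libraries. Per the submitters' processing notes, STAR, Cufflinks and the hg38 build were used. Of their versions, the gene annotation and the strand setting of the counting nothing was given in the sources used here. Per the labels' protocols, RNA was extracted with TRIzol and libraries were made with a stranded mRNA kit. Where a symbol stood on several rows (101 symbols), the row with the highest mean was used.

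Values were tested as log2(FPKM + 1) in R 4.3.3 with the package limma 3.58.1 (moderated variances with a trend) over 11849 rows with a mean of at least 1 FPKM, blocked by time point, since per the labels both media were harvested together. As a check, only 4 of 13 pairs of the same hour had deviations correlated over 0.1 (range −0.509 to 0.421). This check did not bear out the pairing, so the block rests on the labels alone. The changes between sets of plates within a medium came from a fit without a block. FPKM are not counts, so no count test was used. The number of fragments per library was estimated from steps between low values over 1831 genes, with 86.4% to 94.0% of values within 0.1 of a whole fragment. Coordinates and GC content are from GENCODE 29 (GRCh38) and promoters from RefSeq (GRCh38.p14), where DDX58 was matched as RIGI. The GC content is that of the longest transcript of each gene, which need not be the one expressed. The steps were tested on simulated data with independent noise and effects larger than those of the members. These data held no differences in depth or GC content, so they do not test such limits or smaller effects.

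Members and lists were chosen with earlier results of these data known. All tested members are named, and in each other pathway list up to 3 of the largest increases and decreases that passed, with every receptor and interferon gene listed. JAK1 and TYK2 are also named, chosen after their values were seen. Some genes of these lists are not reported here by name. Alternatives were another pseudocount, no filter, upper-quartile and quantile scaling, no block, no variance trend and hours left out singly or together. Correction for GC content and the omission of 6 hours were chosen after seeing the data.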

Additional observations from a re-analysis of the deposited data

Results flagged for a closer look

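For 4 of the 30 members tested the acid effect differed between the sets of plates by the interaction of pH and plate set in limma. The difference (28 to 52 h minus 4 to 24 h) was 1.44 on the log2 scale for USP18 (adjusted p = 0.00527), where acid was higher at 7 of 7 late hours and 4 of 6 early ones. It was 0.74 for DTX3L (adjusted p = 0.0244), which was higher at 7 of 7 late hours and 2 of 6 early ones. It was −0.79 for IFI6 (adjusted p = 0.0183), which was lower at 7 of 7 late hours and 2 of 6 early ones. It was −0.43 for B2M (adjusted p = 0.0217), which was lower at 6 of 7 late hours and 2 of 6 early ones. Without the 8 and 12 h pairs, which hold the libraries of low estimated depth, the adjusted p was 0.122 for DTX3L, 0.11 for IFI6 and 0.0797 for B2M, while USP18 passed. The counts over all genes tested were then 458 upward and 250 downward, against 1249 and 777 with all hours. Without the 20, 28, 44 and 48 h pairs it was 0.0831 for DTX3L and 0.0566 for IFI6. Without all 6 of these hours none of the 4 passed, with adjusted p values of 0.11 for USP18, 0.286 for DTX3L, 0.233 for IFI6 and 0.066 for B2M, and of all genes tested 2 passed upward and 0 downward. DTX3L also missed the threshold without the 8, 12 or 16 h pair alone (adjusted p = 0.0521, 0.057 and 0.0561), and B2M after quantile normalization (adjusted p = 0.0913) and without the variance trend (adjusted p = 0.0519).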

How the results depend on the processing

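Counts higher in acid are given before counts lower. The acid effect passed for 1 and 13 antiviral genes and 4 and 0 class I genes. Antiviral genes higher were 0 without the 20, 28, 44 and 48 h pairs, and class I genes lower were 1 after quantile normalization. Without the block that pairs the hours the counts were 1 and 11, and 4 and 0. With single hours left out they were 1 and 11 to 14 for antiviral genes, and 3 to 5 class I genes were higher.

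For the difference between sets of plates (2 and 1 antiviral, 0 and 1 class I), the antiviral counts were 1 and 0 without the 8 and 12 h pairs, 1 and 0 without the 20, 28, 44 and 48 h pairs, and 0 and 0 without all 6 of these hours. With GC content corrected for, 2 antiviral genes passed downward and 1 class I gene (HLA-B) upward. The class I count downward was 0 after quantile normalization, without the 8 and 12 h pairs, without the 6 hours and without the variance trend. With single hours left out the antiviral counts ranged from 1 to 7 and from 1 to 3. Over all genes tested they then ranged from 792 to 1628 upward and from 500 to 1025 downward.

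Within 4 to 24 h, 2 antiviral genes were lower without the 6 hours, against 11, and 9 to 17 with single hours left out. Over all genes tested 761 were lower there without the 6 hours, against 3318. The 3 class I genes higher there became 5 after quantile normalization, 1 without the 8 and 12 h pairs and 1 to 4 with single hours left out. Within 28 to 52 h, 2 antiviral genes were higher after quantile normalization and without the 8 and 12 h pairs, against 1.

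Late against early in acid, 5 antiviral genes were higher and 0 lower without the 6 hours, against 8 and 1, and 7 to 14 were higher with single hours left out. Over all genes tested 1118 were higher and 840 lower without the 6 hours, against 2960 and 1970. The 1 class I gene higher became 0 without the 8 and 12 h pairs or the 6 hours and 2 without the 20, 28, 44 and 48 h pairs, or, with 1 lower, under GC correction. It was 1 to 2 with single hours left out. In neutral medium the 2 antiviral genes higher became 1 with a pseudocount of 0.1 FPKM, upper-quartile or quantile scaling, GC correction, without the 8 and 12 h pairs and without the 20, 28, 44 and 48 h pairs. The count was 0 without the 6 hours, as for class I genes, and 1 to 3 with single hours left out.

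Leaving out hours also lowers the number of samples. No member that passed reversed its acid effect, or its difference between sets of plates, under any alternative run. Depth limits the members below 1 FPKM, which were not tested, and the low values of IFIT2, IFIT3, SAMD9, SAMD9L and IFI44L in acid.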
